A study of Mus musculus with 2 samples.

Results

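Hypoxic tumour cells were the tumour cells with the highest summed level of 6 genes that are known to respond to low oxygen, in single-cell RNA profiles of subcutaneous mouse tumours. Tumour cells were taken as cells with 0 UMIs of Ptprc, the pan-leukocyte gene, and with at least 5 UMIs, and at least 10 per 10000, of Hmga2 and Rhox5 together. A UMI is a tag that marks 1 captured RNA molecule. The score of a cell was the sum of its UMIs of Ndrg1, Bnip3, Ankrd37, Ero1l, Higd1a and Plod2 per 10000 UMIs, and the top 10% of tumour cells over both libraries pooled were called hypoxic. This gave 2225 hypoxic cells of 22257 tumour cells, out of 35436 barcodes in all. The label rests on RNA alone, since oxygen was not measured.

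The mice had either a control diet or a diet without the amino acids serine and glycine, with 1 library for each, called the control and the restricted library here. Their titles, CT and SG, were read through the design text. The sources used here do not give the tumour line, the strain, age and sex of the mice, or how many animals a library pooled. The protocol text speaks of human cardiac tissue, although organism and tissue are given as mouse and tumour, so how the cells were freed is uncertain. With 1 library per diet nothing was tested: differences by diet are differences between 2 libraries, and differences between hypoxic and other tumour cells were seen in 2 libraries. All intervals are 95% and cover counting error only, except those of list medians, which cover the spread between a list's genes.

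Cells sense oxygen through hypoxia-inducible factors (HIF). Prolyl hydroxylases of the Egln family use oxygen to mark the HIF alpha subunit for destruction, and when oxygen is short the subunit accumulates, pairs with Arnt and binds the core sequence RCGTG near target genes. Known targets raise glucose uptake and glycolysis, hold pyruvate back from the mitochondria, handle acid and lactate, remodel collagen and call in vessels. In solid tumours such cells typically lie far from vessels.

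The sequences upstream of 4 genes are shown because they carry the HIF core that the score genes are known for. Bnip3 (a mitophagy receptor) and Ankrd37 (an ankyrin-repeat protein) belong to the score. Car9 (the cell-surface carbonic anhydrase) and Pgk1 (a glycolytic kinase) do not, and are described below. Each line gives the 250 bases before the gene's start in RefSeq, build GRCm38.p6, on the gene's own strand. Capitals mark ACGTG or GCGTG on either strand, so that CACGT and CACGC are the same motifs read from the opposite strand, and overlapping matches run together.
Bnip3, chr7:138909507-138909756, minus strand: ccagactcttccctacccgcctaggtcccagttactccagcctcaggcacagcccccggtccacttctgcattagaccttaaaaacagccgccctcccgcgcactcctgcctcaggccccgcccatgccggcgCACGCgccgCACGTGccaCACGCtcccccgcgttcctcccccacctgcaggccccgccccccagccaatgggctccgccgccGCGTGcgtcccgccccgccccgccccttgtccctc
Ankrd37, chr8:45999851-46000100, minus strand: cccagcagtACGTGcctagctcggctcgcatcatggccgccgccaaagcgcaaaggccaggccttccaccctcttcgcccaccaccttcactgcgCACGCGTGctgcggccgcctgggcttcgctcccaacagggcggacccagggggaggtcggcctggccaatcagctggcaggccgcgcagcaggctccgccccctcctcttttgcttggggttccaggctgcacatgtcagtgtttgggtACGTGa
Car9, chr4:43506776-43507025, plus strand: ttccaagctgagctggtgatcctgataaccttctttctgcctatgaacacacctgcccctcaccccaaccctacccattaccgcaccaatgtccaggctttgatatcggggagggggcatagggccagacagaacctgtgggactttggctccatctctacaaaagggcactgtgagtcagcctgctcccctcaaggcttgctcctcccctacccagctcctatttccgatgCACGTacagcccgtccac
Pgk1, chrX:106186850-106187099, plus strand: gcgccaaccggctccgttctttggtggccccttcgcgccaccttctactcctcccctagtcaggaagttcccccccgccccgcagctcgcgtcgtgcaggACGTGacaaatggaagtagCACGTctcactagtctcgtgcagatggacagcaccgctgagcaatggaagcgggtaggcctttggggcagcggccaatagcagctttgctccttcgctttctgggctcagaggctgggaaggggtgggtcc
The Bnip3 window held 5 matches, that of Ankrd37 4, that of Pgk1 2 and that of Car9 1. Of the 6 score genes, 4 were found in the promoter table, and all 4 held at least 1 match (Ero1l, listed there as Ero1a, 3 and Higd1a 2). Over all 32851 promoters of the table, 38.6% held a match and 16.7% held 2 or more. Of the 14 promoters found for the 15 genes with the highest ratios of hypoxic to other tumour cells 64.3% held a match, and of the 10 found for the 12 lowest 50%. These are matches of letters, not binding sites.

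The score had no gap at the limit. The lowest hypoxic cell scored 13.1947 per 10000 and the highest cell outside 13.1913, with 233 cells within 1 per 10000 above the limit and 246 within 1 below. The hypoxic cells are thus a range of a score, and whether they also form a separate type was not examined. Their median score was 20.0 and their highest 118.9, against a median of 3.04 in the other tumour cells. Most of them carried several of the genes: 5 or 6 of the 6 were detected in 64.4% of hypoxic cells of the control library and 60.3% of those of the restricted library, against 6.55% and 6.92% of the other tumour cells. Ndrg1, a stress-response gene, gave 38.3% and 36.9% of the score's UMIs, and Plod2, a collagen lysyl hydroxylase, 3.65% and 3.70%. These values chose the cells and support nothing further.

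When cells were chosen on a random part of their UMIs and measured on the rest, all 6 genes were still higher. In the UMIs that did not choose the cells, Bnip3 stood at 340.7 CPM (UMIs of the class scaled to a common total) in hypoxic and 42.0 in other tumour cells of the control library, and at 416 and 74.1 in the restricted library. Over the 6 genes the log2 ratios in these UMIs ran from 1.89 to 3.32 in the control and from 1.91 to 2.64 in the restricted library.

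Hypoxic cells made up 506 of 10029 tumour cells in the control library (5.05%, exact Clopper-Pearson interval 4.63 to 5.49) and 1719 of 12228 in the restricted library (14.1%, 13.4 to 14.7). The share was 2.79 times as high in the latter (2.52 to 3.08). Depth moved with it: tumour cells had a median of 13243 UMIs in the control and 9531.5 in the restricted library. With every cell thinned to 5000 UMIs, which left out 221 and 1123 shallower tumour cells, the shares were 5.90% and 13.6% and the ratio 2.31 (2.09 to 2.54). The 90th percentile of the score was 9.0 in the control and 16.7 in the restricted library, and the 99th percentile 26.1 and 45.6. Cells with a UMI of Ptprc, which are leukocytes, showed the same order, with 3.92 UMIs of the score genes per 10000 in the control and 5.79 in the restricted library, at median depths of 4518 and 3061 UMIs. Whether free RNA or depth had a part in the difference was not tested further.

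**Figure D1:**
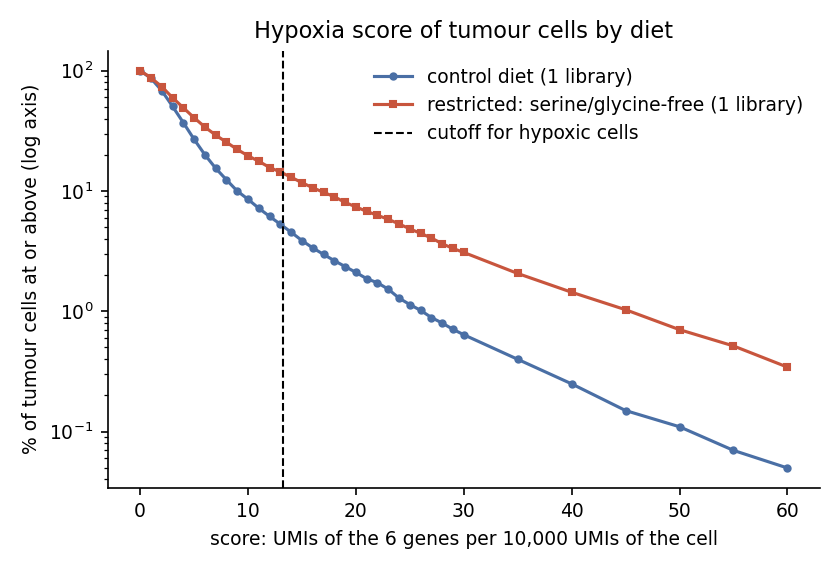
Percentage of tumour cells (log axis) at or above each value of the hypoxia score (UMIs of the 6 genes per 10000 UMIs) in the control and the restricted library. The dashed line is the limit for hypoxic cells, where the curves stand near 5.05% and 14.1%, and neither curve has a step there.

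Within each library hypoxic cells were shallower than other tumour cells (medians 10987.5 against 13387 UMIs in the control, 8268 against 9726 in the restricted library) and had a lower mitochondrial share (3.72% against 4.53%, and 3.36% against 4.15%). Scrublet, a caller of 2 cells under 1 barcode, marked 1.38% and 2.85% of hypoxic cells, against 2.49% and 3.24% of other tumour cells. Across the libraries 87 barcodes were shared, none of them hypoxic in both. Malat1, a nuclear RNA that is often high in damaged cells, stood at 8603 CPM in hypoxic and 4995 in other tumour cells of the control library, and at 6491 and 4339 in the restricted library; its part in the results was not tested.

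Markers of most other cell types were low in hypoxic cells, and those of macrophages and fibroblasts had the largest sums. The 12 macrophage markers summed to 137 CPM in hypoxic and 182 in other tumour cells of the control library and to 256 and 308 in the restricted library, led by Lyz2, against 18061 and 10597 in Ptprc-positive cells. The 8 fibroblast markers summed to 97.9 and 94.6 CPM in the control and to 204 and 145 in the restricted library. No class of fibroblasts was set beside these sums. Dcn, which encodes the matrix proteoglycan decorin, gave the largest part of the sum in hypoxic cells. It was higher in hypoxic cells of both libraries (70.0 against 36.9 CPM, and 151 against 85.6), while Col3a1, another fibroblast marker, was lower (12.4 against 35.9, and 28.4 against 40.6). The 5 erythroid markers stood at 70.7 CPM in hypoxic cells of the control library and at 9.83 without 1 cell that held 367 of their 426 UMIs. Neutrophil, T and NK, dendritic, endothelial, pericyte, keratinocyte, and muscle and fat markers each summed to at most 13.5 CPM in hypoxic cells of either library, as did B and plasma cell markers.

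Hypoxic cells and other tumour cells were compared over 8061 genes with at least 10 CPM in the tumour cells of each library, leaving out the score and gate genes. Being at least 1.5-fold higher in hypoxic cells held for 3.40% of these genes in the control and 3.04% in the restricted library, and for 2.47% (199 genes) in both. Being at least 1.5-fold lower held for 11.7% and 7.31%, and for 5.82% (469 genes) in both. The 199 shared genes were 72.6% of the 274 higher in the control and 81.2% of the 245 higher in the restricted library. Over all genes the median log2 ratio was -0.11 in each library. Since the cells were chosen by correlated genes, these counts describe the cells and were not tested.

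Hypoxia targets outside the score were higher in both libraries. Of a list of 30 such genes 18 passed the level filter, and all 18 were higher, 15 of them at least 1.5-fold in each library. Of all genes 3.40% and 3.04% were that much higher. The list's median log2 ratio was 1.34 (0.69 to 1.65) in the control and 1.28 (0.63 to 1.67) in the restricted library. On these genes the label fits the cells. That check is not independent, since correlated genes chose the cells and the list was written with earlier results of these data known.

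**Figure D2:**
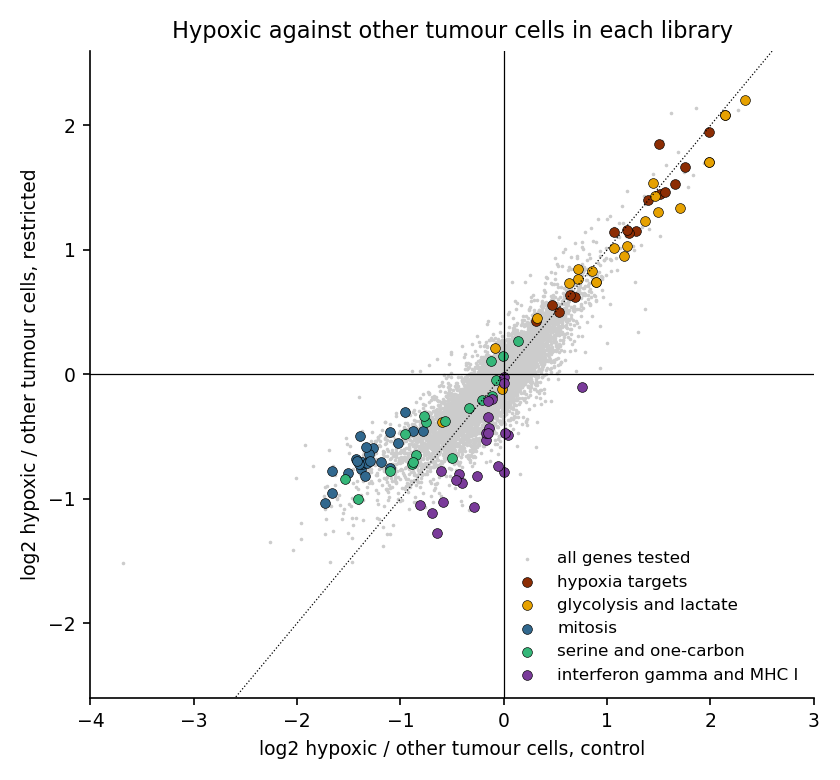
Log2 ratio of hypoxic to other tumour cells in the control (x axis) and the restricted library (y axis) for the 8061 genes tested (grey) and 5 gene lists (colours). Hypoxia targets and glycolysis genes lie at the upper right near the dotted line of equal ratios, and mitosis genes lie at the lower left above it, with medians of -1.34 in the control and -0.70 in the restricted library.

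Car9, a classic HIF target that hydrates carbon dioxide outside the cell, showed the widest gap among the genes that were always to be described. It stood at 25.1 CPM in hypoxic and 1.95 CPM in other tumour cells of the control library, and at 29.3 and 2.54 CPM in the restricted library. That is 12.8-fold (log2 3.68, 3.39 to 3.98, on 151 UMIs in hypoxic cells) and 11.5-fold (log2 3.53, 3.32 to 3.74, on 480 UMIs). Car9 lay under the level filter, so it is not among the counts. Hypoxic cells held 35.8% of all Car9 UMIs of tumour cells in the control and 62.1% in the restricted library. They were 5.05% and 14.1% of the tumour cells of these libraries, so the 2 shares differ in class size too.

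Slc2a1, the glucose transporter GLUT1, stood at 123 CPM in hypoxic and 27.9 CPM in other tumour cells of the control library, and at 145 and 34.1 CPM in the restricted library. Both hypoxic classes lay above both other classes, at 4.40-fold and 4.24-fold. Vegfa, the main vessel growth factor, read 95.1 and 45.4 CPM in the control and 101 and 45.7 CPM in the restricted library, or 2.09-fold and 2.21-fold. P4ha1, a collagen prolyl hydroxylase, was at 247 against 94.1 CPM and 264 against 99.9 CPM. Hilpda, a lipid droplet protein, was at 136 against 47.9 and 173 against 48.0 CPM, and Bhlhe40, a transcriptional repressor, at 144 against 36.5 and 164 against 42.7 CPM. Not every known target was measurable: Adm and Egln3 had 2 UMIs each in hypoxic cells of the control library, and 21 and 14 in the restricted library.

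The oxygen-sensing genes themselves differed less. Hif1a, the HIF alpha subunit, stood at 70.2 and 57.2 CPM in hypoxic and other cells of the control library and at 83.7 and 70.5 CPM in the restricted library. Arnt, its partner, was at 75.6 and 55.0 and at 75.9 and 54.6 CPM. Epas1, the HIF-2 alpha subunit, had 1 and 4 UMIs in hypoxic cells. Of 14 HIF pathway genes tested, 1 was past 1.5-fold higher in each library, against 3.40% and 3.04% of all genes. It was Egln1, a HIF prolyl hydroxylase and itself a target. Egln1 stood at 216 against 68.7 CPM in the control and 286 against 98.9 CPM in the restricted library.

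Glycolysis was higher nearly throughout. Of 21 genes of glycolysis and lactate transport tested, 17 were at least 1.5-fold higher in each library, against 3.40% and 3.04% of all genes. The list's medians were 1.07 (0.72 to 1.46) and 0.95 (0.74 to 1.34). Pgk1, which makes ATP from bisphosphoglycerate, stood at 1775 CPM in hypoxic and 643 in other cells of the control library and at 2594 and 959 in the restricted library. Ldha, which turns pyruvate into lactate, was at 1697 and 757 and at 1887 and 975 CPM. Eno2, an enolase, showed the highest ratio of the genes tested in both libraries taken by the weaker of them, at 76.0 against 15.1 and 93.7 against 20.3 CPM. Pdk1, which switches off pyruvate dehydrogenase, was at 49.8 against 12.6 and 61.0 against 18.7 CPM. Not all members were higher: 3 of the 21 were lower in the control and 2 in the restricted library. Pdha1, a pyruvate dehydrogenase subunit, was at 90.6 against 91.5 and 94.8 against 103 CPM, and Pfkm, a phosphofructokinase, at 9.79 against 10.4 CPM in the control. Slc16a1, the lactate and pyruvate transporter MCT1, was at 48.8 against 73.9 and 50.9 against 66.4 CPM, while the exporter Slc16a3 (MCT4) read 21.6 against 5.62 and 18.6 against 8.50 CPM.

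Glycogen genes split. Of 9 tested, 4 were past 1.5-fold higher in each library, against 3.40% and 3.04% of all genes. Among them was Gbe1, the branching enzyme (95.4 against 32.2 and 115 against 35.7 CPM). Gys1, glycogen synthase, was another (52.1 against 19.2 and 64.9 against 21.2 CPM). Nuclear genes of the respiratory chain were slightly lower, at medians of -0.22 (-0.36 to -0.16) and -0.27 (-0.35 to -0.18), with 32 and 31 of 33 lower, beside 4985 and 5123 of all 8061 genes. Past 1.5-fold lower were 3 and 0 of the 33, against 11.7% and 7.31% of all genes. Mitochondrially encoded genes had medians of -0.29 and -0.34.

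The 15 genes with the highest ratios also held genes outside glycolysis. Cryab, a small heat shock protein, stood at 213 and 66.3 CPM in the control and 231 and 66.9 CPM in the restricted library. Tnfrsf9, the co-stimulatory receptor 4-1BB, was at 135 and 37.1 and at 119 and 26.9 CPM. Hmox1, haem oxygenase, was at 47.1 and 15.3 and at 58.1 and 13.6 CPM. Cxcl1, a chemokine that attracts neutrophils, was at 102 and 26.6 and at 172 and 53.0 CPM, and higher in the restricted library in both classes. Itpk1, Gadd45b, Ier3, the hypoxia-list gene Ccng2 and the glycogen-list gene Pgm1 completed the set, at 2.89-fold to 4.81-fold in the control library and 3.03-fold to 4.35-fold in the restricted library.

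Hypoxic cells carried less RNA of the cell cycle. All 25 mitosis genes were lower in each library, 25 of them at least 1.5-fold in the control and 19 in the restricted library. Of all genes 11.7% and 7.31% were that much lower. The list's medians were -1.34 (-1.39 to -1.26) and -0.70 (-0.72 to -0.59). Mki67, the proliferation marker, stood at 75.8 CPM in hypoxic and 163 in other tumour cells of the control library, and at 154 and 213 in the restricted library. All 24 S-phase genes tested were lower too, at medians of -0.90 and -0.65. Among the 12 genes with the lowest ratios were Tk1, thymidine kinase (19.4 against 64.3 and 38.9 against 94.8 CPM), Cenpm, a kinetochore protein (17.3 against 67.2 and 37.3 against 85.2 CPM), and Asf1b, a histone chaperone (14.3 against 44.7 and 27.1 against 65.0 CPM). The set also held Elovl6, a fatty acid elongase (7.47 against 24.0 and 10.4 against 29.6 CPM), and Col1a1, a collagen chain (4.64 against 22.3 and 12.6 against 32.1 CPM).

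Serine and one-carbon genes, the pathway that the diet bears on, were lower in hypoxic cells. Of 18 tested, 9 were at least 1.5-fold lower in the control and 7 in the restricted library, against 11.7% and 7.31% of all genes. None was that much higher, against 3.40% and 3.04%. The medians were -0.66 (-0.89 to -0.12) and -0.38 (-0.70 to -0.18). Phgdh, which starts serine synthesis, stood at 163 CPM in hypoxic and 302 in other tumour cells of the control library, and at 188 and 312 in the restricted library. Psat1, the next enzyme, was at 51.9 against 93.3 and 73.4 against 115 CPM. Shmt2, the mitochondrial enzyme that turns serine into glycine, was at 50.8 against 109 and 69.0 against 118 CPM, and Slc1a5, a transporter of neutral amino acids, at 34.3 against 91.3 and 39.8 against 79.5 CPM. Among cells below the median of the summed mitosis and S-phase genes, an alternative added after the data were seen, the medians were -0.60 and -0.30.

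ATF4 target genes, which answer amino acid and endoplasmic reticulum stress and include Phgdh and Psat1, did not move together. Their medians were -0.14 and -0.20, with 2 and 3 of 22 past 1.5-fold higher and 6 and 4 past it lower. Of all genes 3.40% and 3.04% were past it higher and 11.7% and 7.31% lower. Ddit3, the stress factor CHOP, stood at 255 and 179 CPM in the control and 189 and 102 in the restricted library. Heat shock genes had medians of 0.24 and 0.21, with Dnajb1 at 170 against 66.1 and 197 against 76.4 CPM. Ribosomal protein genes had medians of 0.15 in each library.

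Genes of interferon gamma signalling and MHC class I stood lower in hypoxic cells of the restricted library and close to all genes in the control. The medians were -0.16 (-0.44 to -0.05) in the control and -0.63 (-0.85 to -0.43) in the restricted library, beside -0.11 over all genes in each. Of 24 tested, 18 and 24 were lower, 5 and 12 of them at least 1.5-fold, against 11.7% and 7.31% of all genes. Iigp1, an interferon-induced GTPase, stood at 32.7 and 51.1 CPM in the control and at 54.7 and 132 in the restricted library. Psmb10, an immunoproteasome subunit, was at 75.3 and 132 and at 79.0 and 163 CPM. The libraries differed in how far the hypoxic cells lay below the rest, and that difference was not tested.

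Cd274, the gene of PD-L1, the checkpoint ligand named in the study's title, was higher in hypoxic cells of the control library, while in the restricted library the interval of its ratio held 0. It stood at 21.1 CPM in hypoxic and 12.5 in other tumour cells of the control library (log2 0.76, 0.49 to 1.02, on 127 UMIs), and at 16.0 and 17.1 in the restricted library (log2 -0.10, -0.29 to 0.09, on 261 UMIs). In hypoxic cells the restricted library was thus the lower one (log2 -0.40, -0.71 to -0.08). Lactylation of the protein cannot be seen in RNA. The 13 genes tested for enzymes that add or remove acetyl and lactyl groups had medians of -0.18 (-0.36 to 0.18) and -0.21 (-0.36 to 0.04), near the median of all genes, with 8 lower in each library. Of the 13, only the acetyltransferase gene Kat2a was past 1.5-fold lower in the control (11.3 against 20.2 CPM), where 11.7% of all genes were.

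Much of this followed the score gradually. Tumour cells were placed in 10 equal bins of the score, the tenth being the hypoxic cells. The mitosis list summed to 4004 CPM in the lowest bin and 1079 in the highest of the control library, and to 4208 and 2300 in the restricted library, where it was highest in the second bin (4619). Car9 by contrast stayed at or under 3.90 CPM up to the eighth bin of both libraries and stood at 7.44 and 9.06 CPM in the ninth. Phgdh was near its highest over the middle bins (321 CPM in the fourth bin of the control) and lowest in the hypoxic bin. The ATF4 list was highest in the seventh bin of the control (4554 CPM) and the eighth of the restricted library (4039), against 3629 and 3587 in the hypoxic cells. Bins share libraries and the score divides by depth, so these are descriptions.

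**Figure D3:**
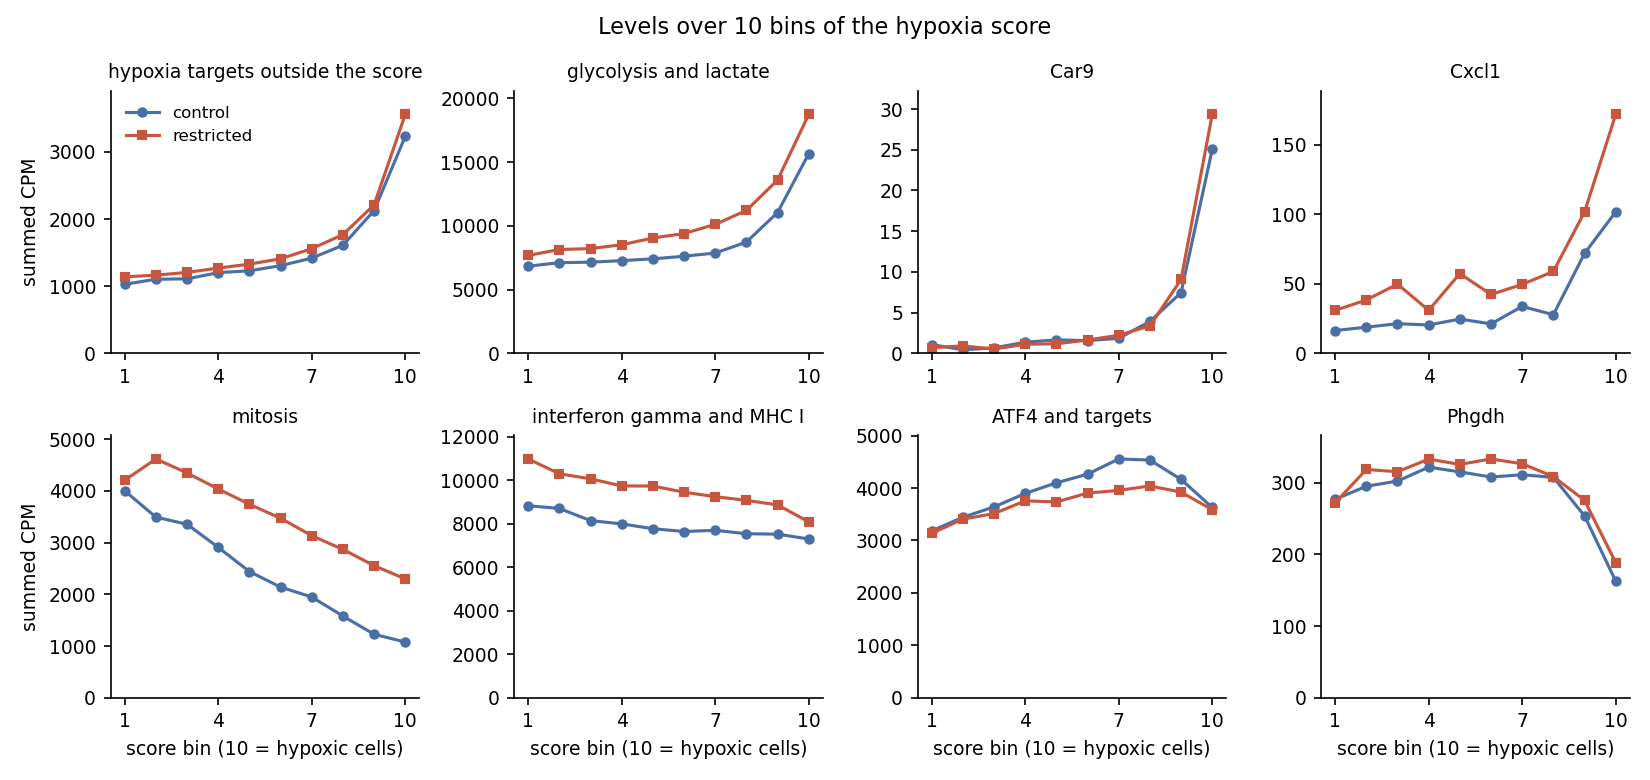
Summed CPM of 5 gene lists and of Car9, Cxcl1 and Phgdh (y axes) over 10 bins of the hypoxia score (x axis; bin 10 is the hypoxic cells) in each library. Car9 and Cxcl1 climb in the last 2 bins, mitosis genes fall from the lowest bin on in the control and from the second bin on in the restricted library, and Phgdh and ATF4 targets are highest in between.

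Among the hypoxic cells themselves, those with scores above the pooled median had more Car9 (33.6 against 19.6 CPM in the control, 40.9 against 18.2 in the restricted library) and Cxcl1 (127 against 86.0, and 241 against 105 CPM). They had less Phgdh (125 against 187, and 159 against 217 CPM).

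Hypoxic cells overlapped unevenly with other tumour-cell states, each taken as the top 10% of its own score. Of the control library, 2.17% of hypoxic and 7.72% of other tumour cells were mitotic, against 5.93% and 13.1% of the restricted library. Cells high in Gadd45b and Cxcl1 were 14.2% and 6.77% in the control and 23.3% and 10.5% in the restricted library. Cells high in interferon gamma genes were 4.15% and 6.95%, and 5.24% and 13.8%. The binomial intervals of hypoxic and other cells did not overlap in any of these pairs. They did for type I interferon and Cp/Aspn/Ogn in the control, Cdsn/Tenm4/Car6 in the restricted library and Dlgap2/Sorcs2/Gria1 in both. With cells thinned to 5000 UMIs they also overlapped for Cdsn/Tenm4/Car6 in the control and Cp/Aspn/Ogn in the restricted library. These intervals take cells as independent and are no test, with 1 library per diet.

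**Figure D4:**
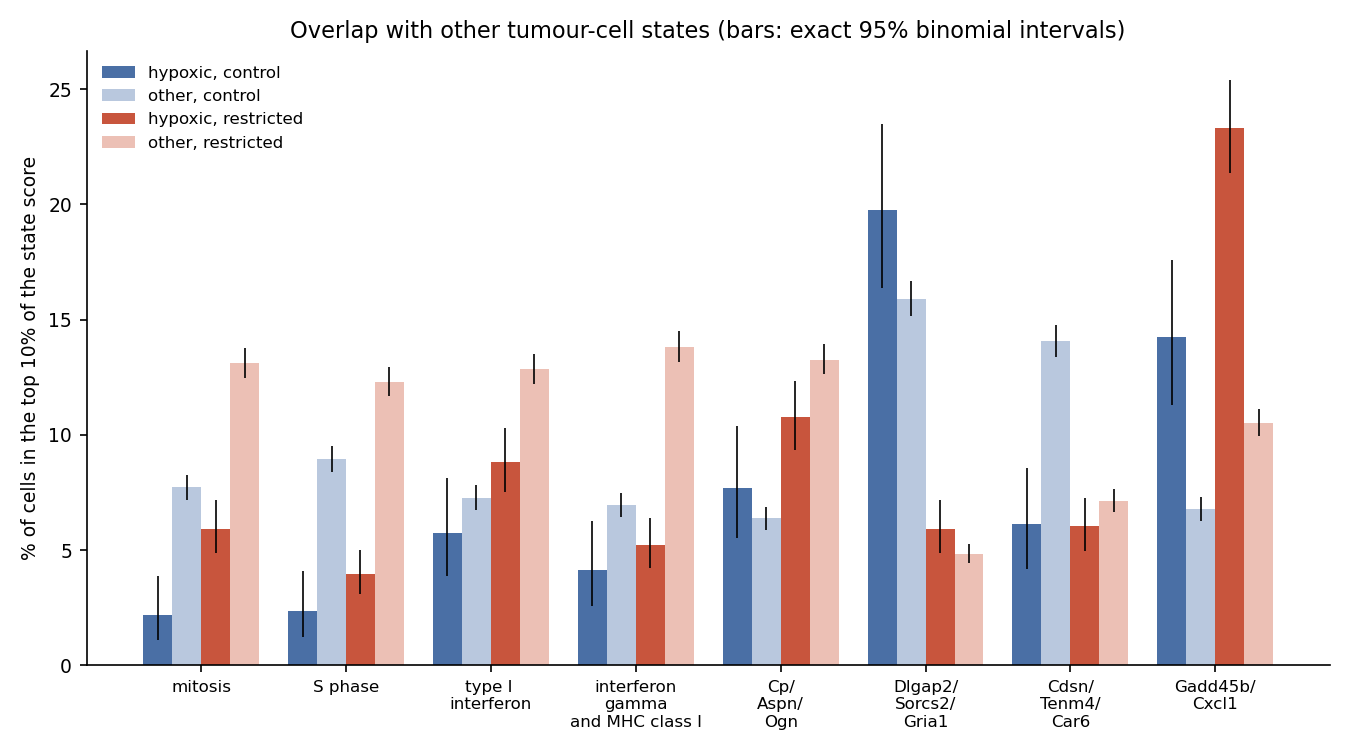
Percentage of hypoxic and other tumour cells (y axis) in the top 10% of 8 state scores (x axis), by library, with exact 95% binomial intervals. Hypoxic cells hold a smaller share of mitotic, S-phase and interferon gamma states and a larger share of the Gadd45b/Cxcl1 state in both libraries.

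By diet, proliferation genes were higher in hypoxic cells of the restricted library than in those of the control. At least 1.5-fold higher were 4.35% of the 8061 genes (351) and at least 1.5-fold lower 0.695% (56); in other tumour cells these were 1.29% and 0.670%. All 25 mitosis genes were past 1.5-fold higher in hypoxic cells, at a median of 1.09 (1.01 to 1.20), whereas in other tumour cells 4 were, at a median of 0.41 (0.38 to 0.51). Mki67 stood at 154 CPM in hypoxic cells of the restricted library and 75.8 in those of the control, and Top2a, a DNA topoisomerase of dividing cells, at 184 and 91.4. S-phase genes had medians of 0.58 in hypoxic and 0.27 in other tumour cells, and 12 of 24 were past 1.5-fold higher in hypoxic cells. The difference between the classes was not tested, with 1 library per diet.

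**Figure D5:**
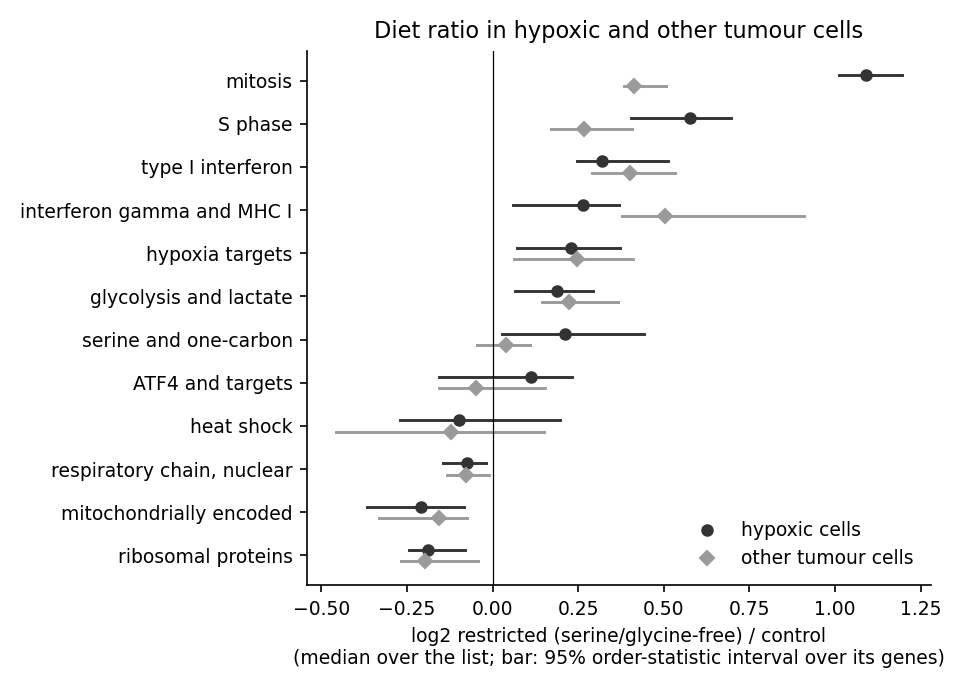
Median log2 ratio of the serine/glycine-free to the control library (x axis) over 12 gene lists (y axis) in hypoxic cells (circles) and other tumour cells (diamonds), with 95% order-statistic intervals over the genes. The mitosis median is 1.09 in hypoxic and 0.41 in other tumour cells, and those of glycolysis and hypoxia targets lie close together in both.

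Hypoxia and glycolysis genes were slightly higher in the restricted library in both classes. The 18 hypoxia targets had a median of 0.23 (0.07 to 0.37) in hypoxic and 0.25 (0.06 to 0.41) in other tumour cells, with 15 and 16 of them higher. The 21 glycolysis genes had medians of 0.19 (0.07 to 0.29) and 0.22 (0.14 to 0.37), with 19 and 18 higher. Over all genes the median was 0.04 in hypoxic and 0.03 in other tumour cells, with 57.6% and 57.9% of genes higher. No gene of either list was past 1.5-fold in either class. With the top 10% taken within each library instead, the medians in hypoxic cells were 0.59 and 0.45. Serine and one-carbon genes had medians of 0.21 (0.03 to 0.44) in hypoxic and 0.04 (-0.05 to 0.11) in other tumour cells. The genes with the highest diet ratio in hypoxic cells included Fst, an activin antagonist (99.2 against 33.3 CPM), Id1, an inhibitor of differentiation (33.9 against 12.4 CPM), and Aurkb, a mitotic kinase (43.5 against 15.4 CPM). C1qb, a macrophage gene, was among them as well (15.6 against 4.98 CPM), beside a macrophage marker sum of 256 against 137 CPM. Lowest were AY036118 (60.9 against 170.0 CPM), the immediate early genes Fos (38.8 against 106 CPM) and Fosb (49.1 against 119 CPM), and Krt18, a keratin (15.8 against 40.3 CPM). Other tumour cells shared part of these diet differences. Of the 351 genes at least 1.5-fold higher in hypoxic cells, 65 (18.5%) were also that much higher in other tumour cells, against 1.29% of all genes. Of the 56 lower genes, 33 (58.9%) were also that much lower there, against 0.670% of all genes. The log2 ratios of hypoxic to other cells were 0.93 for Fos and 0.47 for Fosb in the control and 0.05 and 0.10 in the restricted library.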

How the data were processed

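The deposited values are raw counts of UMIs per gene and barcode for 32285 genes, made by the authors with Cell Ranger, version 7.0.1 per the file headers and 2.2.2, with the mm10 genome, per the submitters' processing notes; no source names the annotation release. The control library held 14774 barcodes with 173785388 UMIs and the restricted library 20662 with 173592046. Barcodes under 500 UMIs or 300 genes, or over 20% mitochondrial UMIs, were dropped (14159 and 20312 kept). Doublets were called with Scrublet in scanpy 1.11.5 (571 and 1206 cells) and removed only as an alternative. UMIs were summed per library and class (6028032 and 16355521 in hypoxic cells) with numpy 2.4.6, scipy 1.17.1 and pandas 2.3.3 in Python 3.11.15 and expressed as CPM. Log2 ratios carry exact conditional binomial intervals, shares exact Clopper-Pearson intervals, and list medians order-statistic intervals. The ratio step was tested on simulated data. Genes needed at least 10 CPM in the tumour cells of each library. Named genes were the score genes, the 15 highest and 12 lowest by the weaker library's ratio, the 10 highest and 10 lowest by diet, up to 4 per list of 48 lists, and a set always described; 183 in all. The members and lists were chosen with earlier results of these data known. Upstream sequences came from RefSeq.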

Additional observations from a re-analysis of the deposited data

Results flagged for a closer look

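Among the 183 named genes, 2 had ratios of hypoxic to other tumour cells in opposite directions in the libraries, with counting intervals apart. With 1 library per diet the difference was not tested. Serping1, the inhibitor of complement C1, had a log2 ratio of 0.24 in the control library (48.3 against 40.8 CPM) and -0.28 in the restricted library (20.5 against 24.8 CPM), a difference of -0.52. Atf4, the integrated stress response factor, had log2 ratios of -0.07 (343 against 359 CPM) and 0.11 (323 against 299 CPM), a difference of 0.17. With cells thinned to equal depth, the Atf4 ratios no longer had opposite signs, at 0.077 in the control and 0.115 in the restricted library. Those of Serping1 stayed opposite when thinned, at 0.20 in the control and -0.14 in the restricted library.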

How the results depend on the processing

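By diet no paired analysis was possible because each diet has 1 library. Hypoxic and other tumour cells were compared within each library, and that comparison was not tested because correlated genes chose the cells. With 1 library per group no replicate could be left out either, and depth limits genes with few UMIs in the 506 hypoxic cells of the control library. The medians of the hypoxia list outside the score kept their sign in all 17 alternatives (1.06 to 1.48 in the control, 1.13 to 1.46 in the restricted library). Of 33 other list medians whose interval left out 0, at least 32 kept their sign in every alternative but 1, where 27 did because mitochondrial and ribosomal protein genes had been left out. The share ratio of 2.79 became 3.50 for the top 5% of the score, 2.03 for the top 20%, 2.31 when thinned, 2.39 with a score of Ero1l, Higd1a and Plod2, and 1.0 for the top 10% within each library, by construction.

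Genes 1.5-fold higher in hypoxic cells of both libraries (199) numbered 115 for the top 20%, 126 with the score of Ero1l, Higd1a and Plod2, 332 at 1 CPM or more, 74 at 50 CPM or more, 126 with 10 CPM added to each level and 56 at 2-fold. Genes lower in both (469) numbered 807 for the top 5%, 211 for the top 20%, 277 with the score of Ero1l, Higd1a and Plod2, 852 at 1 CPM, 146 at 50 CPM, 160 with 10 CPM added, 44 at 2-fold and 226 in cells below the median of cycling genes. By diet, the 351 higher genes numbered 922 at 1 CPM, 96 at 50 CPM, 158 with 10 CPM added, 90 at 2-fold and 175 in cells below the median of cycling genes. The 56 lower genes numbered 124 for the top 5%, 138 for the top 10% within each library, 131 when thinned, 89 when cells were chosen and measured on separate UMIs, 109 without mitochondrial and ribosomal protein genes, 459 at 1 CPM, 8 at 50 CPM, 28 with 10 CPM added and 15 at 2-fold. The cause of these shifts was not tested.

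Thinned, the Cp/Aspn/Ogn state held 12.3% of hypoxic and 9.80% of other tumour cells in the control, and 8.86% and 10.2% in the restricted library. The Dlgap2 state held 2.38% and 1.95% in the restricted library, and the Cdsn state 12.3% and 14.1% in the control. The Gadd45b/Cxcl1 state held 17.6% and 8.18% in the control and 20.2% and 9.67% in the restricted library. For Cdsn in the control and Cp/Aspn/Ogn in the restricted library, intervals that were apart at full depth overlapped when thinned. Of 9862 gene values under alternatives, 18 changed sign from a main value at least 1.5-fold from equality. Sign changes of smaller ratios were not counted. On the log2 scale, in the control library, C1qb was at 0.18 (top 20%) and 0.27 (score of Ero1l, Higd1a and Plod2), Car6 at 0.13 and 0.28, C1qa at 0.22 and 0.064 and also 0.25 without further leukocyte genes, D5Ertd615e at 0.22 (score of Ero1l, Higd1a and Plod2), and Apoe at 0.58, 0.34, 0.087 without further leukocyte genes and 0.22 with a score of Ndrg1, Bnip3 and Ankrd37. In the restricted library Epas1, with 4 UMIs, was at 0.36 (top 5%) and 0.47 (top 20%), D5Ertd615e at 0.11 (top 20%) and 0.12 (score of Ero1l, Higd1a and Plod2), and Aurkb at 0.10 in cells below the median of cycling genes, where the diet ratio of Shmt1 was -0.19. The ATF4 median in the control was 0.058 with the score of Ero1l, Higd1a and Plod2, and the serine list's diet median was -2.934e-05 for the top 10% within each library. Dropping each gene's highest cell from every class moved 3 of 183 genes by over 1.5 times (Adm, Egln3 and Epas1).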

Other observations

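Several gene groups outside the comparisons above also differed between hypoxic and other tumour cells. Metallothioneins and ferritin, which bind metals, were higher: Mt1 stood at 1143 CPM in hypoxic and 502 in other tumour cells of the control library and at 1210 and 587 in the restricted library, and Ftl1 at 4854 and 2849 and at 4515 and 2900. The glutathione and redox list that holds them did not move with them and stood close to all genes. Of its 20 tested genes 14 and 13 were lower, beside 4985 and 5123 of all 8061 genes. Its medians were -0.11 and -0.08, beside -0.11 over all genes in each library. Of the 20, Mt1, Mt2, Ftl1 and Hmox1 were at least 1.5-fold higher in both libraries, against 2.47% of all genes. Lipid genes split, with the droplet protein Plin2 higher (183 against 80.5 and 148 against 68.6 CPM) and the synthesis genes Fasn (10.6 against 22.5 and 16.8 against 31.6 CPM) and Hmgcs1 (23.6 against 48.9 and 42.9 against 77.6 CPM) lower.

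Nfkbia, the NF-kappa-B inhibitor that NF-kappa-B itself induces, stood at 308 and 130 CPM in the control and 426 and 208 CPM in the restricted library. The 13 NF-kappa-B targets tested had medians of 0.34 in each library, with intervals that held 0. In each library 8 of them were higher and 5 lower. Ly6a, an interferon-induced surface protein, was at 46.6 and 100.2 and at 98.0 and 238 CPM. Mdm2, the p53 ubiquitin ligase, was at 141 and 80.4 and at 154 and 85.7 CPM. A list of apoptosis and p53 genes went the other way, with 10 and 12 of 14 lower, at medians of -0.27 and -0.35. The interval of the first median held 0 (-0.62 to 0.22), and that of the second did not (-0.51 to -0.05). Over all genes the median was -0.11 in each library, with 38.2% and 36.4% of genes higher. A list of cell-cycle arrest genes had medians of 0.53 (-0.14 to 1.74) and 0.60 (-0.37 to 1.63), with intervals that held 0. Of its 11 tested genes 9 and 8 were higher.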
